A study of Mus musculus with 4 samples.

Results

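Chemokine ligands are small secreted proteins that direct the movement of cells by binding receptors on their surface. Here 10 of them, chosen by name, were followed among the 30731 genes counted in every library: Ccl1, Ccl3, Ccl4, Ccl5, Ccl9, Ccl17 and Ccl22 of the CC class, Xcl1 of the C class, and Cxcl2 and Cxcl10 of the CXC class. The RNA-seq libraries came from MNK-3, a mouse cell line labelled ILC3-like that was derived from fetal day-15 thymocytes of NIH-Swiss mice and grown with IL-7 and IL-15 (10 ng/ml, 2 libraries), from ILC2 of C57BL/6 bone marrow, whose expansion used IL-25 and IL-33 with IL-2 and IL-7 (10 ng/ml, 1 library), and from splenic NK cells of C57BL/6 mice, labelled ILC1 (1 library). All were wild type, the ILC2 and NK cells came from pooled mice of 8 to 12 weeks, and no cytokine is named for the NK cells. Cell type, strain, tissue, age and culture therefore differ between the groups together and cannot be told apart, and MNK-3 is 1 cell line.

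The classes are named for the spacing of their cysteines, and each ligand reaches only the cells that carry its receptor. Ccl3, Ccl4 and Ccl5 draw monocytes, T cells and dendritic cells, and Xcl1 draws cross-presenting dendritic cells through Xcr1. Ccl17 and Ccl22 share the receptor Ccr4 of type-2 helper and regulatory T cells, Ccl1 binds Ccr8, Ccl9 binds Ccr1, Cxcl2 draws neutrophils through Cxcr2, and Cxcl10 is an interferon-induced ligand of Cxcr3. NK cells are textbook producers of Ccl3, Ccl4, Ccl5 and Xcl1, whereas group 2 innate lymphocytes are known for type-2 cytokines and the Ccr4 ligands are best known from dendritic cells and macrophages.

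No ligand of the 10 reached 10 CPM in either MNK-3 library, and Ccl3 alone did so in ILC2. In NK 4 ligands stood above that level, namely Ccl5, Ccl3, Ccl4 and Xcl1. CPM are read counts scaled to a common library size over the shared genes, after normalization by trimmed means of M values (TMM), and where a single library's level carries an interval it is an exact 95% Poisson interval that covers counting error only. The ILC2 and NK groups had no replicate, and nothing in the labels says that the MNK-3 libraries came from separate cultures. The libraries held 25617762 and 15177345 reads in the shared genes for MNK-3, 9298162 for ILC2 and 4637812 for NK, so that 1 read was worth 0.0278 and 0.0777 CPM in MNK-3 replicates 1 and 2, 0.132 CPM in ILC2 and 0.209 CPM in NK.

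Each set of defining markers had its highest summed CPM under the matching label, but the sets were not confined to it. All 7 ILC3 markers listed were above 10 CPM in both MNK-3 libraries, 6 of 7 ILC2 markers were in ILC2, and 7 of 7 NK markers were in NK. That level was also reached by 4 ILC3 markers in ILC2 and 2 in NK. NK markers reached it for 2 and 3 genes in MNK-3 replicates 1 and 2 and 1 gene in ILC2. ILC2 markers did so for 3 and 2 genes in MNK-3 and 2 in NK, where Gata3 had 122 CPM. MNK-3 replicate 1 stood apart: reads that fell in no gene made up 75.8% of its entries, against 24.3% in MNK-3 replicate 2, 23.1% in ILC2 and 47.1% in NK. It also had reads in 95.6% of the shared genes, against 70.4% in MNK-3 replicate 2, 69.6% in ILC2 and 76.0% in NK. Results on MNK-3 are therefore given for each library.

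**Figure D1:**
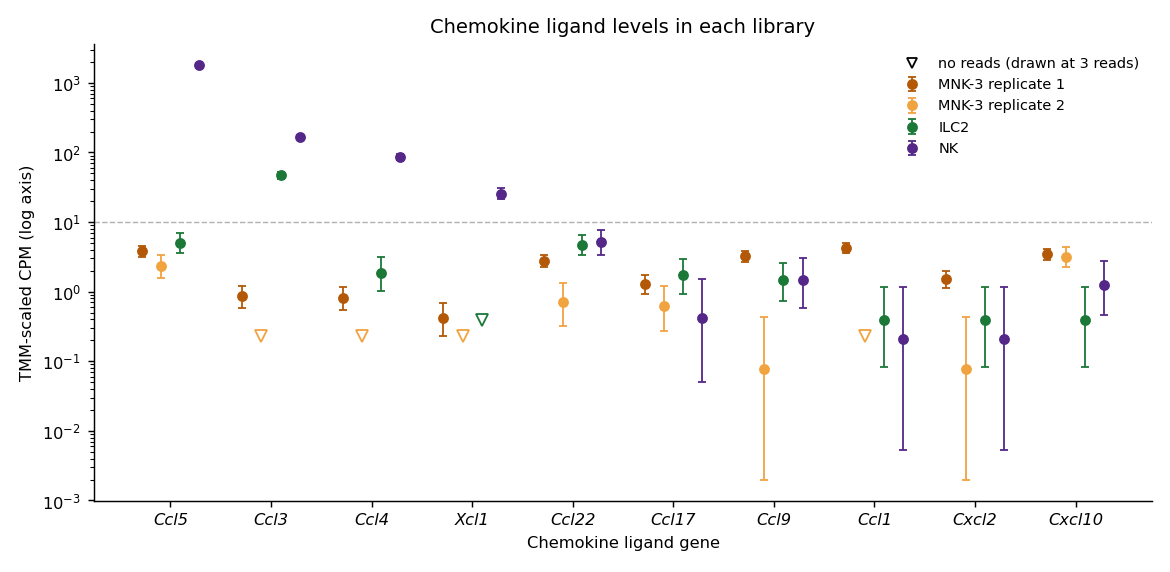
Level of each ligand in each library as TMM-scaled CPM on a log axis, with exact 95% Poisson intervals; open triangles mark libraries with no reads, drawn at the level of 3 reads, and the dashed line marks 10 CPM. Both MNK-3 libraries stay at or under 4.23 CPM for all 10 ligands, Ccl3 stands at 46.8 CPM in ILC2, and Ccl5, Ccl3, Ccl4 and Xcl1 run between 25.7 and 1784 CPM in NK.

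Ccl5, known as a product of NK cells and effector T cells, was the most abundant of the 10 ligands per kilobase of exon, at 1858 CPM in NK. It had 137 and 30 reads in MNK-3 replicates 1 and 2, 38 reads in ILC2 and 8551 reads in NK, which came to 3.81 and 2.33 CPM in MNK-3, 5.02 CPM in ILC2 and 1784 CPM in NK. The NK library stood far above the other 3 libraries, whose levels lay within a few CPM of each other, and Ccl5 ranked 25 by reads among the shared genes of NK. Levels averaged 3.07 ± 1.05 CPM in MNK-3 (SD, n = 2), and Ccl5 fell in MNK-3 against NK, with a log2 fold change of −9.03 (SE 1.41, limma voom, Benjamini-Hochberg adjusted p = 2.13e-06). The interval of the ratio from counting alone put MNK-3 replicate 1 at 395-fold to 558-fold under NK and replicate 2 at 536-fold to 1135-fold under it. Against ILC2, MNK-3 differed by −0.57 in log2 fold change with a 95% interval of −4.40 to 3.25, so a difference in either direction was not detectable.

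Ccl3 was high in both ILC2 and NK. This ligand of Ccr1 had 31 reads in MNK-3 replicate 1 and none in replicate 2, 354 reads in ILC2 and 811 reads in NK, or 0.863 and 0 CPM in MNK-3, 46.8 CPM in ILC2 and 169 CPM in NK. The order NK, ILC2, MNK-3 replicate 1 and MNK-3 replicate 2 was separated at each step by more than counting error. ILC2 had 3.62-fold less Ccl3 than NK (counting interval 3.19 to 4.11), and MNK-3 replicate 1 had 54.2-fold less than ILC2 (37.5 to 81.0). MNK-3 replicate 2, set at a floor of 3 reads in that library, was 201-fold lower than ILC2 and 726-fold lower than NK. These folds leave out the counting error of ILC2 and NK. The counting intervals of its ratio reached up to 0.00616 of ILC2 and 0.00170 of NK.

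Ccl4, the neighbour of Ccl3 on chromosome 11, was high in NK without being high in ILC2. It had 29 reads and none in MNK-3 replicates 1 and 2, 14 reads in ILC2 and 412 reads in NK. These came to 0.807 and 0 CPM in MNK-3, 1.85 CPM in ILC2 and 86.0 CPM in NK, and the ILC2 level was 46.5-fold lower than that of NK by counting (27.4 to 85.7). Per kilobase of exon, where genes can be set beside each other, the level of Ccl3 was 61.1 CPM in ILC2 and 221 CPM in NK, while that of Ccl4 was 2.80 CPM in ILC2 and 130 CPM in NK. ILC2 thus held far less Ccl4 than Ccl3 per kilobase, whereas in NK both were high.

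Xcl1, the C-class ligand by which NK cells and T cells recruit dendritic cells, was seen clearly in NK only. It had 15 reads and none in MNK-3 replicates 1 and 2, none in ILC2 and 123 reads in NK, or 0.418 and 0 CPM in MNK-3, 0 CPM in ILC2 and 25.7 CPM in NK. With 3 reads as the floor of a library, ILC2 was 64.7-fold lower than NK and MNK-3 replicate 2 was 110-fold lower. The counting intervals of these ratios reached up to 0.0193 of NK for ILC2 and 0.0113 for MNK-3 replicate 2. MNK-3 replicate 1 was 61.5-fold lower by counting (35.8 to 113). The MNK-3 and ILC2 libraries all lay under 0.5 CPM, and no order is read among them.

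The remaining 6 ligands were low everywhere, at 5.22 CPM or less in each library. Ccl22 had 100 and 9 reads in MNK-3 replicates 1 and 2, 36 in ILC2 and 25 in NK, or 2.78 and 0.699 CPM in MNK-3, 4.76 CPM in ILC2 and 5.22 CPM in NK. ILC2 and NK did not differ beyond counting error (ratio 0.912, interval 0.533 to 1.59), and MNK-3 replicate 2 was lowest. Ccl17, which lies 58753 bases from Ccl22, had 46 and 8 reads in MNK-3, 13 in ILC2 and 2 in NK, and no library passed 1.72 CPM.

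Ccl9 and Ccl1 were highest in MNK-3 replicate 1 and nearly unread in its partner. Ccl9, a ligand of Ccr1 known from macrophages and osteoclasts in mice, had 116 reads and 1 read in MNK-3 replicates 1 and 2, 11 reads in ILC2 and 7 in NK. Ccl1, a ligand of Ccr8 made by activated T cells, had 152 reads and none in MNK-3, 3 in ILC2 and 1 in NK. For Ccl1 the MNK-3 mean of 2.12 ± 2.99 CPM (SD, n = 2) rested on replicate 1 alone. Its log2 ratio of CPM with 0.5 CPM added was 1.88 over NK with both libraries and −0.45 with replicate 2 alone.

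The CXC ligands parted from each other in MNK-3. Cxcl2 had 54 reads and 1 read in MNK-3 replicates 1 and 2, 3 reads in ILC2 and 1 read in NK, which repeats the split between the MNK-3 libraries. Cxcl10 had 124 and 41 reads in MNK-3, 3 in ILC2 and 6 in NK, or 3.45 and 3.19 CPM in MNK-3, 0.396 CPM in ILC2 and 1.25 CPM in NK. With TMM scaling it was the ligand on which the MNK-3 libraries lay closest, with a mean of 3.32 ± 0.19 CPM (SD, n = 2) and a replicate 1 to replicate 2 ratio of 1.08 (counting interval 0.756 to 1.58). That ratio depends on the scaling, whose TMM factors were 1.40 and 0.848 in MNK-3 replicates 1 and 2, and counting intervals leave the scaling out. Each MNK-3 library lay above ILC2 by counting, 8.71-fold in replicate 1 (2.91 to 42.8) and 8.03-fold in replicate 2 (2.56 to 40.6), and above NK by 2.76-fold (1.23 to 7.66) and 2.54-fold (1.07 to 7.33). The limma voom fit did not call Cxcl10, with a log2 fold change of 2.88 over ILC2 and an interval of −5.21 to 11.0. With 0.5 CPM added, its log2 ratio in MNK-3 over NK was 1.12 with TMM and ran from 0.885 to 1.32 with other scalings. Over ILC2 that ratio was 2.09 with TMM and ran from 1.89 to 2.43 with other scalings.

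Promoters were read for the ligands that carry these patterns, the NK-high Ccl3 and Xcl1 and the CXC pair Cxcl2 and Cxcl10. RefSeq windows (GRCm38.p6) matched 8 of the 10 ligands, Ccl4 and Ccl5 being unmatched. Each line gives the 250 bases before the annotated start, 5′ to 3′ on the gene's strand, and capitals mark matches on either strand to any of 6 motifs: TGTGGT for RUNX factors, GGTGTGA for T-box factors, TGANTCA for AP-1, GGGNNNTTC as the core of a kappaB site, GAAANNGAA as the core of an interferon response element, and TATAAA for a TATA box. Ccl3 lies at chr11:83649379-83649628 and Xcl1 at chr1:164935523-164935772, both on the minus strand. Cxcl2 lies at chr5:90903649-90903898 on the plus strand and Cxcl10 at chr5:92348890-92349139 on the minus strand.
Ccl3: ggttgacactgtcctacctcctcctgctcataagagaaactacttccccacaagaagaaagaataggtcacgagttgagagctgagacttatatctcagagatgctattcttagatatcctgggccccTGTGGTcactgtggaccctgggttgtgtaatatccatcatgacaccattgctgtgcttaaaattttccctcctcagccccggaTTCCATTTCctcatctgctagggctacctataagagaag
Xcl1: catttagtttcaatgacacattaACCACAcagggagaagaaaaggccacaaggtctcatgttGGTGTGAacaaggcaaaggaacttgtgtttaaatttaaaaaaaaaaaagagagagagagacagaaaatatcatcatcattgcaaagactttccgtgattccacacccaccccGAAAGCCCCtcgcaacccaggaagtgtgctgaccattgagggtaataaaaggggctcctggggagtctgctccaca
Cxcl2: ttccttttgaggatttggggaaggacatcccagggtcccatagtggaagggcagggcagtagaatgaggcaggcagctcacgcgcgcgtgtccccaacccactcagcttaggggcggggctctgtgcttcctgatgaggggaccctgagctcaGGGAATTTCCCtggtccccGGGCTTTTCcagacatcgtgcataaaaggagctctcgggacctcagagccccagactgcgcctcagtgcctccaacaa
Cxcl10: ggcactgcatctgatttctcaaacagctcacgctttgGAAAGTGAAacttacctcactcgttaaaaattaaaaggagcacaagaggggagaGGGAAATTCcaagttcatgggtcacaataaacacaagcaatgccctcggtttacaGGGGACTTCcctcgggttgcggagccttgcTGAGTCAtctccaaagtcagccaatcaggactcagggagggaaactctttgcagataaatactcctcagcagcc
The Ccl3 window holds 1 RUNX match and 1 interferon-response match, the second on the opposite strand. The Xcl1 window holds 1 RUNX match and 1 kappaB match on the opposite strand, and 1 T-box match on its own strand. RUNX and T-box proteins are families of transcription factors, of which some members act in lymphocytes. The Cxcl2 window holds 3 kappaB matches, of which 2 overlap on opposite strands. The Cxcl10 window holds 2 kappaB matches, 1 AP-1 match that reads alike on both strands and 1 interferon-response match. Among all 32851 windows of this length, 14.0% hold the RUNX letters, 3.33% T-box, 6.75% AP-1, 11.8% kappaB, 7.13% interferon response and 12.4% the TATA box. A match describes the letters only, and no binding was measured.

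In the comparison of MNK-3 with NK, which asks how a line labelled ILC3-like differs from NK cells, 4 of the 10 ligands were at least 4-fold lower in MNK-3 and none was 4-fold higher. These were Ccl5, Ccl3, Ccl4 and Xcl1, the ligands described above as high in NK. A 4-fold difference was counted from CPM with 0.5 CPM added, where the higher of the groups had 10 CPM or more. Over all 25283 genes tested 2.25% were 4-fold lower and 6.08% were 4-fold higher. No ligand reached 10 CPM in either MNK-3 library, so under this rule none could count as 4-fold higher in MNK-3. The voom fit called 1 ligand lower, Ccl5, and none higher, where it called 0.514% of all genes lower (130 genes) and 0.00791% higher (2 genes). Ccl3 had a log2 fold change of −9.46 (SE 2.86, adjusted p = 0.126), Ccl4 of −8.54 (adjusted p = 0.260) and Xcl1 of −7.37 (adjusted p = 0.803). These fitted values depend on how a library without reads is handled and are not bounds.

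The median log2 ratio of the 10 ligands was −0.61 in MNK-3 over NK, beside 0.68 for all genes tested. With MNK-3 replicate 2 alone the medians were −2.01 for the ligands and −0.07 for all genes. The same 4 ligands were 4-fold lower with either MNK-3 library left out. The Ccl5 call was lost when the libraries were scaled by abundant genes (adjusted p = 1.00, SE 8.92), while its log2 fold change there was −8.93. The fit takes the spread of the lone NK library from the pair of MNK-3 libraries, and only 1 residual degree of freedom stood behind the spread.

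In the comparison of MNK-3 with ILC2, Ccl3 was the ligand counted as 4-fold different, and no ligand was called by the fit. Ccl3 was 1 of 10 at least 4-fold lower, beside 2.67% of all genes. None of the 10 was counted as 4-fold higher, beside 3.71%, and none could be, since none reached 10 CPM in MNK-3. Cxcl10 was 4.26-fold higher with 0.5 CPM added but lay under that minimum. The fit put Ccl3 at −7.60 on the log2 scale (SE 2.84, adjusted p = 0.521), and called 0.324% of all genes lower and 0.00396% higher. The median log2 ratio of the ligands was −0.24, beside 0.77 for all genes. With MNK-3 replicate 2 alone the medians were −0.97 for the ligands and 0 for all genes.

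In the comparison of ILC2 with NK, Ccl5, Ccl4 and Xcl1 were lower in ILC2. The difference was 323-fold for Ccl5 and 36.8-fold for Ccl4 with 0.5 CPM added, and 64.7-fold for Xcl1 with ILC2 set at the floor of 3 reads. Ccl3 lay close to the 4-fold mark at 3.59-fold, a log2 ratio of −1.84. With library totals, abundant-gene factors or thinned counts its log2 ratio was −2.18, −2.16 or −2.11, past the mark, so that 4 ligands were then 4-fold lower. At full depth with TMM scaling, 3 of 10 ligands were 4-fold lower, beside 2.12% of all genes, and none was 4-fold higher, beside 5.02%. Ccl3 alone reached the minimum of 10 CPM in ILC2, so no other ligand could have counted as higher there. The limma voom fit called 0 ligands and 0% of all genes in either direction, with 577 genes at an unadjusted p under 0.05. Ccl5 had a log2 fold change of −8.45 (SE 2.09, adjusted p = 0.245), and it was called without the filter on low counts (adjusted p = 0.0150) and with counts thinned to the smallest library (adjusted p = 0.00912). No replicate check exists for this pair of libraries.

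**Figure D2:**
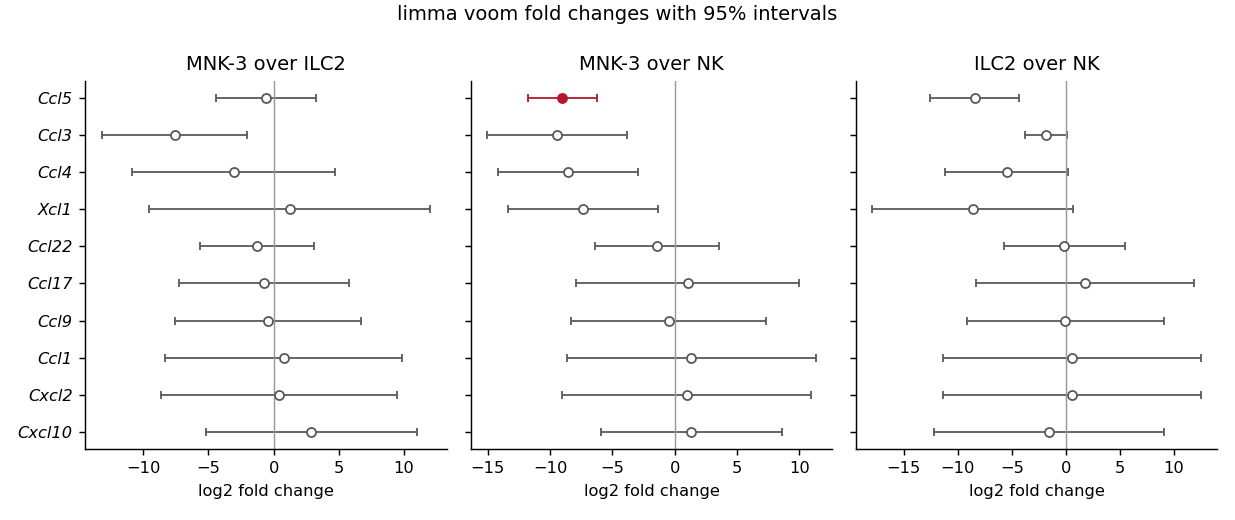
Fitted log2 fold change of each ligand with its 95% interval from limma voom, in MNK-3 over ILC2, MNK-3 over NK and ILC2 over NK; the filled red point is the called ligand. Only the interval of Ccl5 in MNK-3 over NK (−11.8 to −6.26) belongs to a call, and most of the low ligands have intervals that reach from far below 0 to far above it.

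The make-up of the chemokine reads differed between the libraries. Over the 10 ligands and 27 further chemokine ligand genes, the reads numbered 3852 and 513 in MNK-3 replicates 1 and 2, 851 in ILC2 and 10193 in NK. Ccl5 held 3.56% and 5.85% of them in MNK-3, 4.47% in ILC2 and 83.9% in NK. Ccl3 held 0.805% and 0% in MNK-3, 41.6% in ILC2, where it led, and 7.96% in NK. Ccl5, Ccl3, Ccl4 and Xcl1 together held 5.50% and 5.85% in MNK-3, 47.7% in ILC2 and 97.1% in NK. Shares of reads depend on gene length. Per kilobase of exon the same ligands held 13.9% and 19.2% in MNK-3, 76.2% in ILC2 and 99.2% in NK, and Ccl3 alone held 67.3% in ILC2. Among the 27 further genes, Ccl25 had 842 and 287 reads in MNK-3 replicates 1 and 2.

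**Figure D3:**
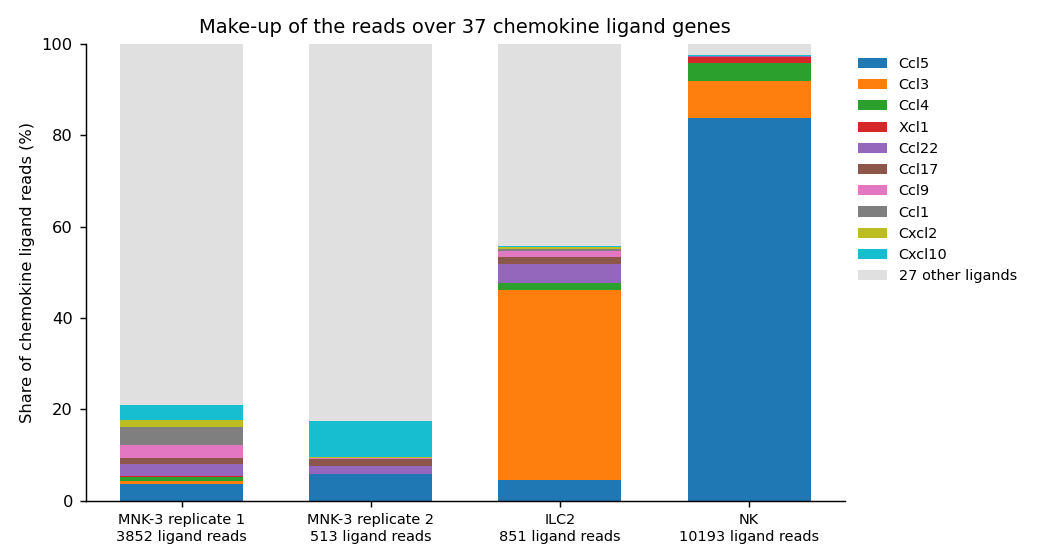
Share of the reads over 37 chemokine ligand genes held by each of the 10 ligands and by the 27 other ligands in each library. The 27 other ligands fill most of both MNK-3 bars, Ccl3 fills 41.6% of the ILC2 bar, and Ccl5 fills 83.9% of the NK bar.

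The other ligands were few at a high level. Of the 28 listed, 27 were in all tables and 19 were tested, and none of the 19 was called in any comparison. Ccl25, a ligand of Ccr9 in thymus and gut, had 23.4 and 22.3 CPM in MNK-3, 13.1 CPM in ILC2 and 31.3 CPM in NK, and Cxcl12, the ligand of Cxcr4, had 6.99 and 2.64 CPM in MNK-3, 13.3 CPM in ILC2 and 5.22 CPM in NK. The median log2 ratio of the 19 was 0.74 in MNK-3 over NK, 0.78 in MNK-3 over ILC2 and 0.00 in ILC2 over NK, beside 0.68, 0.77 and −0.05 for all genes. With MNK-3 replicate 2 alone the sign turned, to −0.48 over NK and −0.22 over ILC2, beside −0.07 and 0 for all genes.

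The density of low reads in MNK-3 replicate 1 bears on how its ligand counts are read. Of the 4151 coding genes with no reads in replicate 2, 85.6% had reads in replicate 1, at a median of 14.9 reads per kilobase of exon and a range from the 5th to the 95th percentile of 0 to 71.1. Ccl1, Ccl3, Ccl4, Ccl9, Ccl22, Xcl1, Cxcl2 and Cxcl10 lay inside that range in replicate 1, between 26.1 reads per kilobase for Cxcl2 and 64.2 for Ccl1. Ccl5 at 143 and Ccl17 at 89.5 reads per kilobase lay above it. Ccl1, Ccl3, Ccl4 and Xcl1 themselves belong to the genes without reads in replicate 2, and 29.6% of all shared genes had none there. The part of this low-level signal in the MNK-3 values was not tested, and the 4-fold differences of the NK-high ligands were as many in replicate 2 as in replicate 1.

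**Figure D4:**
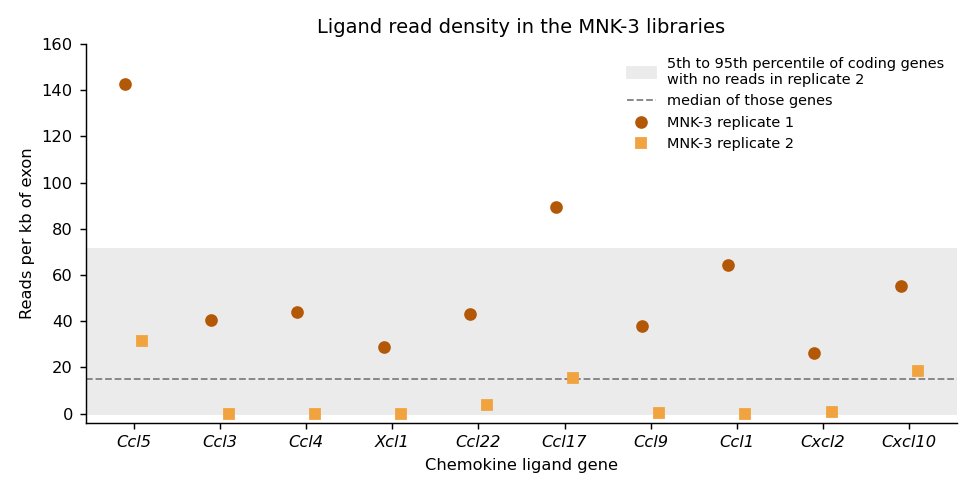
Reads per kilobase of exon for each ligand in MNK-3 replicates 1 and 2, with the range and median, in replicate 1, of coding genes that had no reads in replicate 2. In replicate 1, 8 ligands lie within the band that ends at 71.1 reads per kilobase and Ccl5 and Ccl17 lie above it.

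The NK-high ligands of chromosome 11 did not form an unbroken block. Per the GENCODE M21 annotation (GRCm38), Ccl3 (ENSMUSG00000000982) is at chr11:83647844-83649355 and Ccl4 (ENSMUSG00000018930) at chr11:83662584-83664683, 13228 bases apart on opposite strands. Ccl5 (ENSMUSG00000035042) is at chr11:83525778-83530518, and Ccl9 (ENSMUSG00000019122) lies 42400 bases from it at chr11:83572919-83578636. Ccl9 sits between Ccl5 and Ccl3 and had 3.23 and 0.0777 CPM in MNK-3, 1.45 CPM in ILC2 and 1.46 CPM in NK. Ccl6, 9245 bases from Ccl9, had 2.23 and 0.233 CPM in MNK-3, 6.74 CPM in ILC2 and 0.417 CPM in NK. Heatr9, 3602 bases from Ccl5, was also highest in NK, with 7.29 and 1.17 CPM in MNK-3, 0.793 CPM in ILC2 and 51.7 CPM in NK.

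The other ligand genes lie apart from this cluster. Ccl1 (ENSMUSG00000020702) is annotated at chr11:82176657-82305690, a body that is long because of 1 noncoding isoform. Ccl22 (ENSMUSG00000031779) and Ccl17 (ENSMUSG00000031780) are at chr8:94745590-94751699 and chr8:94810453-94812036. Xcl1 (ENSMUSG00000026573) is at chr1:164931644-164935527, Cxcl2 (ENSMUSG00000058427) at chr5:90903871-90905938 and Cxcl10 (ENSMUSG00000034855) at chr5:92346638-92348889, inside the overlapping gene Art3 on the opposite strand. How the authors' counting used strand is not given in the sources used here. Whether reads from Art3 entered the Cxcl10 count is therefore not known and was not tested. Art3 had 3.76 and 0.155 CPM in MNK-3, 0.264 CPM in ILC2 and 0.209 CPM in NK. Stretches of 38 bases, the read length, were shared with another gene for 13.0% of Xcl1 (with Gm20743), 6.65% of Cxcl2 (with Cxcl3), 4.14% of Cxcl10 (with Art3) and 3.09% of Ccl9, and for none of the other ligands. These are shares of the sequence and not errors of the levels, and their effect on the levels was not tested.

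Among genes passing the filter, those closest to Ccl5 over the 4 libraries were Prf1, S1pr5 and Adamts14, at distances of 1.70, 2.40 and 2.45 in log2 CPM with 0.5 added. Prf1, which encodes perforin, had 3.73 and 0.388 CPM in MNK-3, 5.42 CPM in ILC2 and 1447 CPM in NK. Those closest to Ccl3 were Cd48, Ctla2a and Ctss at distances of 1.44, 1.53 and 1.67. Cd48, an adhesion and signalling protein of lymphocytes, had 2.98 and 0.0777 CPM in MNK-3, 41.0 CPM in ILC2 and 127 CPM in NK. These are descriptions of 4 libraries.

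Receptors of the ligands differed in level between the libraries. Ccr1, which binds Ccl3, Ccl5 and Ccl9, had 2.37 and 0 CPM in MNK-3, 141 CPM in ILC2 and 0 CPM in NK, a level found in ILC2 alone. Ccr4, the receptor of Ccl17 and Ccl22, had 10.2 and 0.311 CPM in MNK-3, 83.3 CPM in ILC2 and 1.46 CPM in NK. Its ligands stayed at or under 4.76 CPM in ILC2, so the receptor was present there with little of its ligands.

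The receptors of the remaining ligands were at lower levels. Cxcr3, the receptor of Cxcl10, had 8.18 and 1.79 CPM in MNK-3, 0.529 CPM in ILC2 and 50.3 CPM in NK, where its ligand had 1.25 CPM. Xcr1, the receptor of Xcl1, had 11.0 and 11.4 CPM in MNK-3, 8.06 CPM in ILC2 and 0.209 CPM in NK, so that it was lowest in the library where its ligand was highest. Ccrl2, an atypical receptor that does not signal, had 7.54 and 1.94 CPM in MNK-3, 2.11 CPM in ILC2 and 20.0 CPM in NK. Neither Cxcr3 (adjusted p = 0.209 over NK) nor Xcr1 (adjusted p = 1.00 over NK) was called by limma voom.

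Of the cytokines that lymphocytes secrete with chemokines, the type-2 group was high in ILC2. In MNK-3 against ILC2, 3 of 11 were called lower and none higher by limma voom: Csf2 with a log2 fold change of −5.06 (adjusted p = 0.00159), Il5 with −11.5 (adjusted p = 0.0111) and Il13 with −10.6 (adjusted p = 0.00713). All of these calls were lost with scaling by abundant genes (adjusted p = 1.00 each), and that of Il5 with plain library totals (adjusted p = 0.0771). Il13, a type-2 cytokine, had 7.77 and 0 CPM in MNK-3, 2044 CPM in ILC2 and 0.417 CPM in NK, and Il5, the eosinophil growth factor, had 2.90 and 0 CPM in MNK-3, 1640 CPM in ILC2 and 0 CPM in NK. Csf2, which encodes GM-CSF, had 3.09 and 6.14 CPM in MNK-3, 123 CPM in ILC2 and 4.38 CPM in NK. Il9 had 0.334 and 0.0777 CPM in MNK-3, 104 CPM in ILC2 and 0.209 CPM in NK.

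Tnf was highest in MNK-3 and Ifng in NK. Ifng, which induces Cxcl10 in many cells, had 1.70 and 0 CPM in MNK-3, 0.264 CPM in ILC2 and 51.3 CPM in NK (log2 fold change −7.07 in MNK-3 over NK, limma voom adjusted p = 0.515). Tnf had 23.6 and 42.1 CPM in MNK-3, 0.661 CPM in ILC2 and 5.84 CPM in NK, and was not called. Of the 11 cytokines none was called in MNK-3 over NK or in ILC2 over NK. The median log2 ratio of the 11 was 1.62 in MNK-3 over NK, −0.41 in MNK-3 over ILC2 and 3.13 in ILC2 over NK, beside 0.68, 0.77 and −0.05 for all genes. With MNK-3 replicate 2 alone it was 0.44 over NK and −1.37 over ILC2, beside −0.07 and 0 for all genes.

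Of the interferon-induced genes other than Cxcl10, those described here gave no call in any comparison. Irf1, a transcription factor induced by interferon gamma, had 59.1 and 79.7 CPM in MNK-3, 90.8 CPM in ILC2 and 247 CPM in NK, and Irf7 had 34.5 and 37.0 CPM in MNK-3, 7.80 CPM in ILC2 and 68.2 CPM in NK. Gbp2 had 20.2 and 24.1 CPM in MNK-3, 57.4 CPM in ILC2 and 57.8 CPM in NK, and Isg15 had 7.54 and 12.6 CPM in MNK-3, 3.44 CPM in ILC2 and 1.67 CPM in NK. Cxcl10 shared with Isg15 an order in which both MNK-3 libraries lay above ILC2 and NK, and did not share it with Irf1, Irf7 or Gbp2.

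Other cells can supply these ligands, and in bulk RNA fewer cells of a type and less RNA per cell cannot be told apart. The 7 T cell markers summed to 83.8 and 6.60 CPM in MNK-3, 15.1 CPM in ILC2 and 33.8 CPM in NK, where Cd8b1 was at 0 and Cd3g led with 18.2 CPM. The 8 monocyte and macrophage markers summed to 29.8 and 4.20 CPM in MNK-3, 28.8 CPM in ILC2 and 37.8 CPM in NK; Lyz2 and Ms4a7 were at 0 in MNK-3 replicate 2 and Ms4a7 in ILC2, and 1 of the 8, Ly6c2, passed 10 CPM in NK. The 6 neutrophil markers summed to 15.03 and 0.311 CPM in MNK-3, 1.32 CPM in ILC2 and 1.46 CPM in NK, with S100a8 and Retnlg at 0 in MNK-3 replicate 2, ILC2 and NK. Neutrophil signal was thus near 0 outside MNK-3 replicate 1.

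The 7 dendritic cell markers summed to 98.4 and 85.9 CPM in MNK-3, 108 CPM in ILC2 and 30.9 CPM in NK, led by Zbtb46 in MNK-3 (50.8 and 82.7 CPM) and in NK (12.1 CPM) and by H2-Ab1 in ILC2 (99.6 CPM). Clec9a was at 0 in MNK-3 replicate 2, and Clec9a, Cd209a and Siglech were at 0 in ILC2. The 7 mast cell and basophil markers summed to 25.6 and 2.87 CPM in MNK-3, 8.99 CPM in ILC2 and 171 CPM in NK, of which Cma1 made up 155 CPM in NK. Fcer1a and Mcpt4 were at 0 in MNK-3 replicate 2, Cpa3, Ms4a2, Fcer1a, Mcpt4 and Cma1 in ILC2, and Fcer1a and Mcpt8 in NK. The 6 B cell markers summed to 27.2 and 2.18 CPM in MNK-3, 52.3 CPM in ILC2 and 7.51 CPM in NK, with Cd79b at 0 in MNK-3 replicate 2 and Ms4a1 at 0 in ILC2, where Cd79b led with 46.3 CPM. The 5 megakaryocyte and platelet markers summed to 19.6 and 5.21 CPM in MNK-3, 4.23 CPM in ILC2 and 19.8 CPM in NK, with Gp1bb and Ppbp at 0 in MNK-3 replicate 2 and Ppbp at 0 in ILC2. The part of such cells in the ligand levels was not tested.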

How the data were processed

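Total RNA of the 4 libraries was sequenced as read pairs of 38 bases from a stranded total RNA kit, per the labels' protocols, which also mention 2 technical replicates for each experiment. Per the submitters' processing notes, STAR 2.7.8a and HTSeq were used with mm10/GRCm38; the strand setting is not given in the sources used here. The authors deposited whole-number read counts per gene, not normalized, in a unit recorded as other because the tables are tab-separated under a different name. Entries that name no gene (76.5% and 26.6% of entries in MNK-3, 25.9% in ILC2 and 49.3% in NK) were left out, as were genes not in all tables (at most 3.05% of a library's gene reads).

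Counts were scaled with own code for TMM (factors 1.40 and 0.848 in MNK-3, 0.814 in ILC2 and 1.03 in NK), kept where a gene reached 10 reads, adjusted for library size, and 15 reads in all, and fitted with limma voom (limma 3.58.1, R 4.3.3) in 1 fit of 3 groups. Tests were two-sided, and calls were made at a Benjamini-Hochberg adjusted p under 0.05 over all 25283 genes. The prior degrees of freedom were infinite, so spread was pooled over genes, and p-values measure the spread between the MNK-3 libraries, which may be technical. All 10 ligands passed the filter.

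Scaling, filter, depth, libraries fitted, added CPM, minimum level and each MNK-3 library were varied. All 10 ligands are named, and from each list up to 6 genes with at least 10 CPM in any library; some of these are not reported here. The ligands and lists were chosen with earlier results of these data known. Intervals of single-library levels and of ratios by counting cover counting error only, whereas the limma voom intervals come from the standard errors of the fit.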

Additional observations from a re-analysis of the deposited data

How the results depend on the processing

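Ccl5 was the ligand called in MNK-3 over NK, and the count of ligands called there, 1, went to 2 with median-of-ratios factors and to 2 with no filter on low counts, Ccl3 being the ligand added, and to 0 with factors from abundant genes. In ILC2 over NK the count of ligands called, 0, went to 1 with no filter and to 1 with counts thinned to the smallest library, Ccl5 in both. The number 4-fold lower in ILC2 over NK, 3, was 4 with thinned counts, with abundant-gene factors and with plain library totals, Ccl3 being the ligand added. The number of ligands 4-fold higher in MNK-3 over ILC2 went to 1 (Cxcl10) with a minimum level of 1 CPM. The cause of these changes was not tested. With each MNK-3 library left out in turn, 4 ligands stayed 4-fold lower in MNK-3 over NK and 1 in MNK-3 over ILC2. The counts of ligands 4-fold higher stayed at 0. In MNK-3 no ligand reached the minimum of 10 CPM, so these counts could not rise there. The count of 3 in ILC2 over NK also stayed. That comparison holds no MNK-3 library and could change only through the scaling, so this was no check of it. Of 270 log2 ratios recomputed for the ligands, 239 stayed within the spread and 31 moved. The spread was the SD of the MNK-3 libraries on the log2 scale, or counting error for ILC2 over NK. Ligands on which the MNK-3 libraries differed widely, such as Ccl1 and Ccl9, could therefore hardly leave it. The filter setting does not enter these ratios, so its part of the 270 was the same by construction. Ccl5 in MNK-3 over NK was the only ratio called, and its sign did not change. Among ratios of at least 2-fold, that of the uncalled Ccl1 changed sign without MNK-3 replicate 1, to −0.45 over NK and −0.77 over ILC2. Against the trimmed-mean scaling, other factors shifted the median log2 ratio of all genes by −0.28 to 0.29 in MNK-3 over NK, by −0.23 to 0.43 in MNK-3 over ILC2 and by as much as −0.21 in ILC2 over NK. No paired analysis was possible because the groups share fewer than 2 replicate numbers. With 1 library each, ILC2 and NK give no spread of their own, and a library with no reads allows up to 3 reads, or 0.233 CPM in MNK-3 replicate 2 and 0.396 CPM in ILC2.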
